A study of Homo sapiens with 10 samples.

Results

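The 4 CEBP genes CEBPA, CEBPB, CEBPD and CEBPG were taken by symbol from 20327 Ensembl genes measured in each of 10 RNA-seq libraries. All libraries came from wild-type hTERT RPE-1, an epithelial line of human retinal pigment epithelium immortalised with telomerase, held for 48 h in 0.1% serum. In a 30 min experiment, 3 libraries of cells given merbarone, a catalytic inhibitor of topoisomerase II, at 200 µM for 30 min stood against 3 libraries of cells given the solvent DMSO for 30 min. In a 2 h experiment, 2 libraries of cells given merbarone at 200 µM for 2 h stood against 2 libraries of untreated cells that had received no DMSO. The series concerns DNA supercoiling and the promoter-proximal pausing of RNA polymerase II. The labels do not say that replicates were separate cultures, so p-values measure only the spread between these libraries, which may be technical.

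C/EBP proteins are basic leucine zipper (bZIP) transcription factors: a basic region contacts DNA and a zipper joins the protein to a partner, another C/EBP or a related bZIP factor. CEBPA is best known for driving cell-cycle exit and differentiation of myeloid cells, hepatocytes and adipocytes. CEBPB and CEBPD are inducible factors of the acute-phase response and of early adipogenesis, and CEBPD is a known target of STAT3. CEBPG lacks an activation domain of its own and acts through its partners, among them ATF4, with which C/EBP proteins bind a composite C/EBP-ATF element at genes of the amino-acid and integrated stress response. The CEBPA, CEBPB and CEBPD genes lack introns.

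On the GRCh37 build, CEBPB (ENSG00000172216) is annotated at chr20:48807367-48809205 on the plus strand as a single exon. Its annotated antisense transcript CEBPB-AS1 overlaps it, and the strand setting of the read counting is not given in the sources used here, so the CEBPB values may include antisense reads. CEBPG (ENSG00000153879) lies at chr19:33864591-33873592 on the plus strand, with 3 exonic blocks that sum to 4056 bp of a span of 9002 bp. CEBPA (ENSG00000245848) lies at chr19:33790840-33793440 on the minus strand, as a single exon. Its start on that strand, at 33793440, is 71151 bp from the start of CEBPG. In this annotation no member overlaps another gene of the deposited tables. For CEBPD the values imply a length of 2179 bp against 1252 bp annotated, and SPIDR lies 607 bp away. Whether the counted interval of CEBPD reached SPIDR is not known.

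The promoters of CEBPB and CEBPG are shown because these members carry the results below. RefSeq lists 2 start sites for each gene, and the downstream window of each is printed here from 250 bases before to 50 bases after the start, on the GRCh38.p14 build and the plus strand. The CEBPB window is chr20:50190580-50190879 and the CEBPG window chr19:33373863-33374162. Capitals mark every match, on either strand, to the motifs searched.
CEBPB: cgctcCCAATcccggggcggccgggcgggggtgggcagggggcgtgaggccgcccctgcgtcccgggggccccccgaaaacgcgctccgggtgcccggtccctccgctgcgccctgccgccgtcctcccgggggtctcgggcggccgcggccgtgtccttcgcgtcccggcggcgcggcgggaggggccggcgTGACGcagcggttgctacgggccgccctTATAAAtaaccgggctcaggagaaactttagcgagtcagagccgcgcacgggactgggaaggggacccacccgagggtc
CEBPG: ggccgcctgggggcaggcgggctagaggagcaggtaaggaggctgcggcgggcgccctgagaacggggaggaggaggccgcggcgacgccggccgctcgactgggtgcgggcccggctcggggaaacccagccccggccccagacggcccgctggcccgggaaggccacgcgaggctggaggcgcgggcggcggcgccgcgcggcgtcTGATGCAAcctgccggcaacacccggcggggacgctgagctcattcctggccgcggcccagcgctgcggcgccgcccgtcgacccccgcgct

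The motifs searched were the cyclic-AMP response element TGACGTCA and its part TGACG, the composite C/EBP-ATF element TGATGNAA, the C/EBP palindrome TTGCGCAA, the STAT element TTCNNNGAA, the CCAAT box and the TATA element TATAAA. Positions are counted from the start site, with negative numbers before it. In the CEBPB window the capitals are CCAAT at -245, TGACG at -57 and TATAAA at -29. TGACG is held by 24.6% of 35116 RefSeq promoters of this length, CCAAT by 34.6% and TATAAA by 11.5%. In the CEBPG window the capitals are 1 match to TGATGNAA, reading TGATGCAA, at -42, an element held by 3.62% of the promoters. The upstream windows held CCAAT alone, with 2 matches in CEBPG and 1 in CEBPB, the same bases as the one at -245, since the CEBPB windows overlap. The single CEBPA window held TATAAA at -30 and no other match. TGACGTCA (1.85% of promoters), TTGCGCAA (0.151%) and TTCNNNGAA (7.66%) had no match in any of these 5 windows.

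The composite element was also searched over each of the 2 genes with 2000 bp on either side on GRCh37, 5839 bp for CEBPB and 13002 bp for CEBPG. CEBPB held 1 match, in its 3′ UTR, at chr20:48808933-48808940 on the plus strand. CEBPG held 2 matches. The first, at chr19:33864977-33864984 in an annotated intron, is the same site as the promoter match printed above, with the same bases on either side. The second, at chr19:33873501-33873508 on the minus strand, lies in the 3′ UTR, 92 bases before the gene's end. The sites are shown with 8 bases on each side, in the direction of the match, with the element in capitals.
CEBPB 3′ UTR: ttcgaagtTGATGCAAtcggttta
CEBPG intron: gcggcgtcTGATGCAAcctgccgg
CEBPG 3′ UTR: tcacaaacTGATGAAAgccaggaa

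An element of this length is common in gene ends: 5.95% of 19602 genes held TGATGNAA in the last 300 bases of their span, a window chosen after the CEBPB match was seen. The spans searched around CEBPB and CEBPG were far longer, so matches there come more easily by length alone. No share was computed for spans of that length. These matches describe the sequence only, and the libraries carry no measurement of factor binding.

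RNA levels are given as RPKM, reads per kilobase of gene scaled to the reads of the library. The whole reads behind the values could be recovered, with totals of 26633780 to 38225538 reads in the 30 min experiment and 11956652 to 13691014 in the 2 h experiment. Of the pigment epithelium markers, RPE65 and RLBP1 of the visual cycle were near 0, at no more than 0.0656 and 0.0603 RPKM, and the melanin enzyme TYR was at 0 in 2 libraries and at most 0.00338 RPKM in the others. The regulator OTX2 (2.35 to 4.61 RPKM) and the melanosome protein PMEL (3.68 to 5.07 RPKM) were expressed. The channel gene BEST1 was expressed too (at least 2.10 RPKM). MITF and SERPINF1 reached at most 0.415 and 0.425 RPKM. By reads, MITF reached 2105 in a library, against at most 1476 for OTX2 and 188 for SERPINF1. RPKM is divided by gene length, so the low RPKM of MITF does not mean few reads. Also expressed were the epithelial keratins KRT8 (1.80 to 6.64 RPKM) and KRT18 (14.1 to 69.4 RPKM). The leukocyte marker PTPRC reached at most 0.00758 RPKM, and the macrophage markers CD14 and CSF1R at most 0.259 and 0.117 RPKM.

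CEBPB was the member with the highest RNA level in every library. It measured 13.4, 20.5 and 16.1 RPKM in the DMSO libraries and 14.1, 16.3 and 21.9 RPKM after 30 min of merbarone. In untreated cells CEBPB measured 15.7 and 18.3 RPKM, against 42.2 and 48.5 RPKM after 2 h of merbarone. The 2 h merbarone libraries lay above all 8 others, among which the CEBPB values overlapped between groups. In the untreated group the mean CEBPB value was above those of 96.7% of genes, and after 2 h of merbarone above those of 99.0%. These shares hold for RPKM only. The gene lengths behind RPKM mostly include introns, which CEBPB lacks, so its rank among genes is likely overstated.

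CEBPG measured 2.80, 2.51 and 2.32 RPKM in the DMSO libraries and 2.99, 2.80 and 2.51 RPKM after 30 min of merbarone, and these 2 groups overlapped. It measured 4.07 and 3.77 RPKM in untreated cells and 10.8 and 12.1 RPKM after 2 h of merbarone. Here too the 2 h merbarone libraries were the highest of the 10. The untreated libraries lay above all 6 libraries of the 30 min experiment, and between those sets the vehicle and the experiment cannot be told apart.

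CEBPD (ENSG00000221869), annotated on chromosome 8 from 48649475 to 48650726 on the minus strand of GRCh37, was a low-level transcript. It measured 0.775, 1.50 and 0.925 RPKM with DMSO and 0.900, 1.11 and 1.56 RPKM after 30 min of merbarone, from 45 to 119 reads a library. In the 2 h experiment it measured 0.517 and 0.768 RPKM in untreated cells, from 15 and 20 reads. After 2 h of merbarone it measured 1.24 and 1.27 RPKM, from 37 and 36 reads. The 2 h merbarone libraries lay above the untreated ones and within the range of the 30 min experiment. Exact Poisson 95% intervals, which cover counting error only, were 8.40 to 24.7 and 12.2 to 30.9 reads for the untreated libraries and 26.1 to 51.0 and 25.2 to 49.8 reads for the merbarone libraries.

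CEBPA was at the limit of detection. Its reads numbered 2, 0 and 3 with DMSO, 2, 0 and 1 after 30 min of merbarone, 0 and 4 in untreated cells, and 1 and 2 after 2 h of merbarone, or at most 0.127 RPKM. For the 3 libraries without a read the floor was set at 3 reads, worth 0.0371 RPKM in DMSO replicate 2, 0.0304 in 30 min merbarone replicate 2 and 0.0856 in untreated replicate 1. The exact Poisson interval used for CEBPD reaches somewhat higher for such a library, to 3.69 reads. No fold change is given for CEBPA, whose differences were not detectable at this depth.

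**Figure D1:**
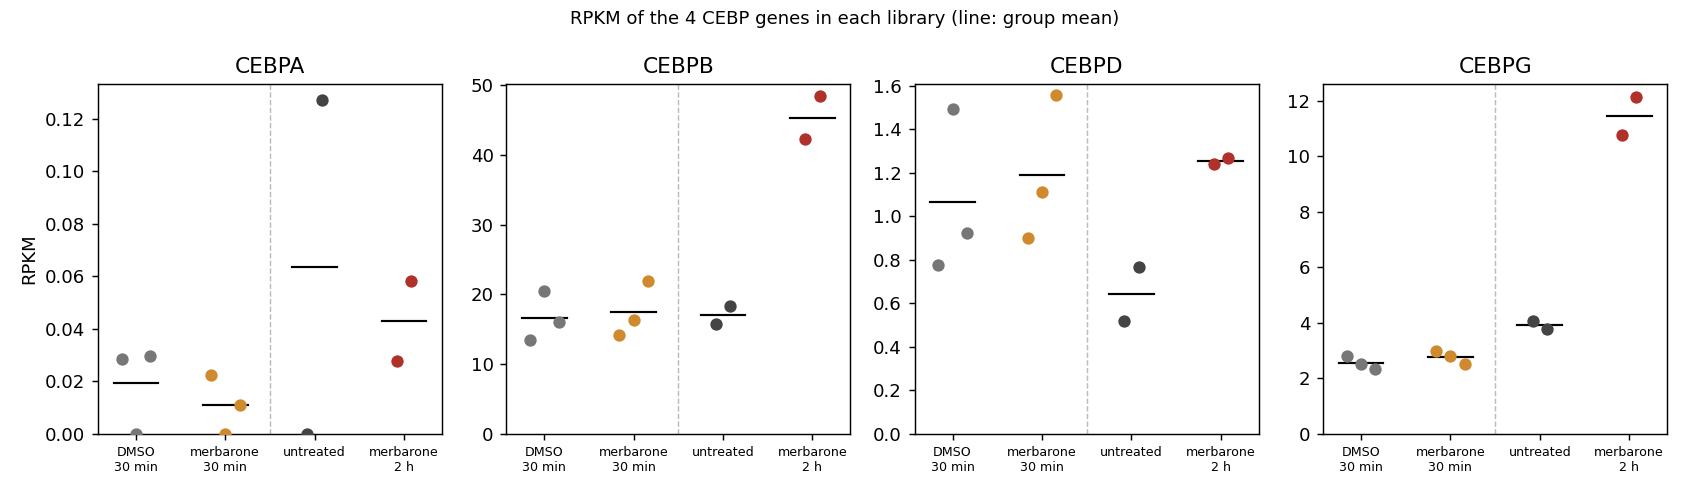
RPKM of each CEBP gene in the 10 libraries (points) with group means (lines), by group, each panel with its own axis from 0. CEBPB and CEBPG in the 2 h merbarone libraries lie above all other libraries, and CEBPA has 4 reads or fewer in every library.

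The first comparison asked whether the members had changed after 30 min of merbarone. None of the 3 members that could be tested passed the test. On the log2(RPKM + 1) scale, which understates changes of low genes, CEBPB differed by 0.06 ± 0.20 (SE, 95% interval -0.42 to 0.54), CEBPD by 0.09 ± 0.16 (-0.29 to 0.47) and CEBPG by 0.09 ± 0.07 (-0.09 to 0.27). The adjusted p in limma was 1.00 for each, 3 libraries a group. All 3 intervals included 0. With the replicate number as a block, the CEBPG interval was 0.01 to 0.16, which does not include 0, but its adjusted p over all genes in limma was again 1.00. CEBPA was not tested, since its mean was under the minimum of 1 RPKM.

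The background of that comparison was low: limma called 1 of 6500 tested genes (0.0154%), FOS, which was higher with merbarone. With the replicate number as a block it called 8 (0.123%), and none of the members. The libraries of the 2 groups overlapped for all 3 tested members, while 2.28% of tested genes had groups that did not overlap. Between libraries of the same replicate number, CEBPB differed by 0.07, -0.31 and 0.42 on the log2(RPKM + 1) scale and CEBPD by 0.10, -0.24 and 0.41, so both moved in the same direction pair by pair and in no common direction across pairs. CEBPG differed by 0.07, 0.11 and 0.08, higher with merbarone in 3 of 3 pairs. Without DMSO replicate 1 the CEBPB and CEBPD differences were -0.08 and -0.01, and without merbarone replicate 3 they were -0.10 and -0.03.

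The second comparison asked the same after 2 h of merbarone, against untreated cells. CEBPB and CEBPG RNA rose together, to 2.67 and 2.92 times the untreated mean. CEBPB, the inducible acute-phase factor, went from 17.0 ± 1.82 to 45.4 ± 4.39 RPKM (SD, n = 2 a group). CEBPG, the partner without an activation domain, went from 3.92 ± 0.209 to 11.4 ± 0.960 RPKM (SD, n = 2 a group). The log2 difference was 1.36 ± 0.12 for CEBPB (SE, 95% interval 1.09 to 1.64, adjusted p = 1.69e-04 in limma). It was 1.34 ± 0.10 for CEBPG (1.12 to 1.56, adjusted p = 5.38e-05 in limma). In bulk RNA, a rise in every cell and a larger rise in some of the cells cannot be told apart.

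Both tested members were called higher, against a background of 5.98% of 6620 tested genes called higher and 7.1% called lower, 13.1% in all. Their groups did not overlap, as held with treated libraries higher for 22.5% of tested genes. On the log2(RPKM + 1) scale 0.468% of tested genes had a higher log2 difference than CEBPB, and 0.498% a higher one than CEBPG, and in voom on recovered reads the shares were 1.09% and 0.871%. Without the minimum on RPKM the adjusted p in limma was 0.0716 for CEBPB, which then missed the threshold of 0.05, and 0.0490 for CEBPG, in a fit that called 0.286% of genes higher.

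CEBPD had a mean of 0.948 RPKM in this experiment, just under the minimum of 1, and was not part of the test. Its mean went from 0.642 ± 0.177 to 1.25 ± 0.0190 RPKM (SD, n = 2 a group), 1.95 times the untreated mean, or a difference of 0.46 on the log2(RPKM + 1) scale, which shrinks the change of such a low gene. In limma's voom on the recovered reads, which has neither that minimum nor the added 1 RPKM, its log2 difference was 0.98 with an adjusted p of 0.0492, in a fit that called 8.82% of genes higher. In the RPKM fit without the minimum the adjusted p in limma was 0.131, so the call for CEBPD depends on the values tested.

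**Figure D2:**
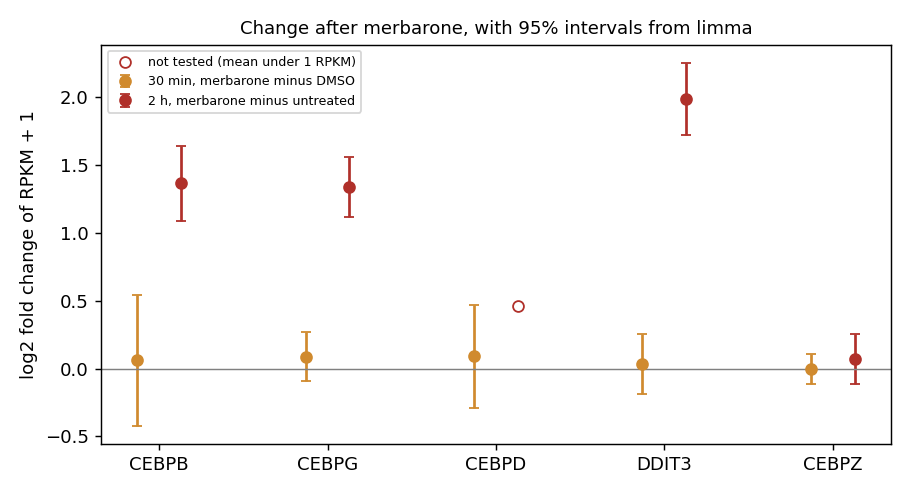
Log2 difference of log2(RPKM + 1), merbarone minus control, with 95% intervals, for the CEBP genes and the related genes DDIT3 and CEBPZ at 30 min and 2 h. CEBPB (1.36), CEBPG (1.34) and DDIT3 (1.98) stand away from 0 at 2 h, while the 30 min intervals all include 0.

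The third comparison tested whether the 2 h effect differed from the 30 min effect, over all 10 libraries. Time, vehicle and experiment differ together in that contrast and cannot be told apart. The CEBPG effect was larger at 2 h by 1.25 ± 0.12 on the log2 scale (SE, 95% interval 0.98 to 1.52, adjusted p = 0.00129 in limma). The CEBPB difference was of like size, 1.30 ± 0.28 (0.67 to 1.93), and missed the threshold with an adjusted p of 0.0584 in limma. With the replicate block the CEBPB difference passed, with an adjusted p of 0.00585 in limma, in a fit that called 7.69% of genes higher. For CEBPD the difference was 0.37 ± 0.22 (-0.12 to 0.86, adjusted p = 0.448 in limma). In all, 1 of 3 tested members was called, against 1.63% of 6558 tested genes, 1.27% called higher and 0.366% lower. The share of called genes that were higher was 77.6% in the fit above, 88.6% after quantile normalization and 40.2% with the replicate block.

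The CEBPB call in that contrast turned on single libraries of the 30 min experiment. Without DMSO replicate 1 the adjusted p in limma was 0.0375, and without 30 min merbarone replicate 3 it was 0.0377. DMSO replicate 1 held the lowest CEBPB value of the 10 libraries, and merbarone replicate 3 the highest of its experiment. CEBPG passed in 18 of 18 alternatives that tested it, with adjusted p from 1.55e-06 to 0.0124 in limma.

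To compare members with one another, reads were divided by exon length, since the RPKM length of CEBPG (9361 bp implied by the values) includes introns and its exons sum to 4056 bp. This scale, called exon RPKM here, assumes that the reads lie in the annotated exons. On it, CEBPB averaged 17.0 ± 1.82 exon RPKM in untreated cells and 45.3 ± 4.38 after 2 h of merbarone (SD, n = 2 a group). CEBPG averaged 9.04 ± 0.481 and 26.4 ± 2.22, and CEBPD 1.12 ± 0.309 and 2.18 ± 0.0331 (SD, n = 2 a group). The order was CEBPB, CEBPG, CEBPD and CEBPA in all 4 groups, with no overlap between neighbours in any group. For CEBPD the values imply a length of 2179 bp against 1252 bp in the annotation used, so its exon-scale level may be too high.

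The shares of the members in their sum were described in the same way, with no test. The 4 members together came to 27.2 ± 1.74 exon RPKM in untreated cells and 73.9 ± 6.66 after 2 h of merbarone (SD, n = 2 a group). CEBPB made up 62.4% of the sum in untreated cells and 61.3% after merbarone, CEBPG 33.3% and 35.7%, and CEBPD 4.08% and 2.96%. The ratio of CEBPB to CEBPG on this scale was 1.67 and 2.10 in untreated cells, against 1.70 and 1.73 after 2 h of merbarone, so the groups overlapped. In the 30 min experiment the ratio was more variable, from 2.07 to 3.54 with DMSO and from 2.05 to 3.78 with merbarone. There the sum was 24.4 ± 4.03 with DMSO and 25.9 ± 4.02 with merbarone (SD, n = 3 a group).

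**Figure D3:**
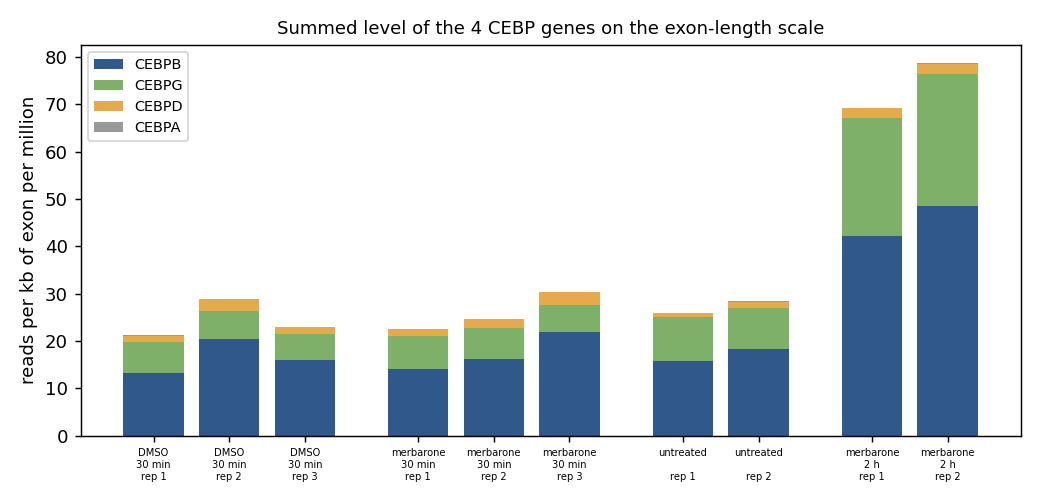
Stacked exon RPKM (reads per kilobase of exon, scaled to the reads of the library) of the 4 CEBP genes in each library. The 2 h merbarone bars reach 69.2 and 78.7, and the other 8 lie between 21.2 and 30.4, with CEBPB the largest part of each bar.

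Of the other genes with C/EBP in their name, DDIT3 (ENSG00000175197), which encodes CHOP, a stress-induced bZIP partner that blocks the binding of C/EBP dimers to their usual sites, was also higher at 2 h. It measured 5.41, 6.32 and 5.54 RPKM with DMSO and 5.15, 6.38 and 6.22 RPKM after 30 min of merbarone. It measured 7.24 and 8.57 RPKM in untreated cells and 32.0 and 36.5 RPKM after 2 h of merbarone, 4.33 times the untreated mean. The 2 h log2 difference of DDIT3 was 1.98 ± 0.12 (SE, 95% interval 1.72 to 2.25, adjusted p = 1.74e-05 in limma), and the gene overlaps MARS1 and MBD6, so part of its reads may belong to them. CEBPZ, which is named for CCAAT binding and is no bZIP factor, differed by 0.07 ± 0.08 at 2 h (SE, adjusted p = 0.591 in limma). CEBPE, a factor of granulocytes, was at 0 in 9 libraries and had 1 read in the other.

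Among 44 other bZIP factors, 24 were tested at 2 h, of which 11 rose and none fell, with a median log2 difference of 0.26 against -0.05 over all tested genes, of which 5.98% were called higher. Of the 11, ATF3, FOS, FOSB and NFIL3 had untreated means under 1 RPKM and passed the minimum only through the merbarone group, and the other 7 did not depend on it. The median of 0.26 includes ATF3, FOS, FOSB and NFIL3 and was raised by their admission. On the log2(RPKM + 1) scale, which shrinks low genes, the largest rises were those of the AP-1 subunits FOSB (log2 difference 3.33), JUNB (from 8.27 and 14.0 to 56.5 and 66.2 RPKM) and FOS (log2 difference 2.04), genes of the immediate-early response. As a ratio, ATF3 (from 0.108 to 2.69 RPKM) moved more than JUNB or FOS. FOSB overlaps ERCC1 and JUNB overlaps HOOK2 in the tables, so their values are less certain. FOS also passed the test at 30 min, with 0.489 to 1.65 RPKM in the DMSO libraries and 38.9 to 62.1 RPKM in the merbarone libraries. FOSB (0.0992 to 0.477 RPKM with DMSO, 6.94 to 17.3 RPKM with merbarone) and JUNB (7.55 to 11.8 and 22.6 to 32.5 RPKM) had groups that did not overlap at 30 min either, and missed the threshold (FOSB adjusted p = 0.0755 and JUNB adjusted p = 0.661 in limma). ATF4, the C/EBP partner of the stress response, had 49.4 RPKM in untreated cells and 63.0 RPKM after 2 h, a log2 difference of 0.35 that missed the threshold (adjusted p = 0.0962 in limma).

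In a list of 20 genes known for composite sites bound by ATF4 with C/EBP factors, 14 of 16 tested genes rose at 2 h and none fell, with a median log2 difference of 1.25, against 5.98% of all tested genes called higher. Of the 14, the 5 genes ASNS, CHAC1, SESN2, GPT2 and ATF3 had untreated means under 1 RPKM and passed the minimum only through the merbarone group, so their rise admitted them, and the other 9 did not depend on it. The median of 1.25 includes the 5 admitted genes and was raised by their admission. Examples were CHAC1, a glutathione-degrading enzyme (log2 difference 4.25, from 0.448 to 26.7 RPKM), DDIT4, an inhibitor of mTORC1 signalling (2.98, from 28.9 to 235 RPKM), and SESN2, a leucine sensor (2.05, from 0.818 to 6.59 RPKM). At 30 min 11 members of the list were tested and none was called. ATF3 was under the minimum there and not tested. It measured 0.0487 to 0.0517 RPKM in the DMSO libraries and 0.158 to 0.460 RPKM after 30 min of merbarone, without overlap. In the difference between the effects 10 of 14 tested genes of the list were called, all larger at 2 h, against 1.27% of all tested genes called higher. The same admission of low genes applies to this count. DDIT3, ATF3, TRIB3 and IL6 each stand in 2 of the lists, so the lists are not independent.

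IL-6 family signalling to STAT3, a route known to switch on CEBPB and CEBPD, had 12 of 18 genes tested, of which 3 rose at 2 h and none fell, with a median of 0.20, against 5.98% of all tested genes called higher and 7.1% lower. The kinase gene PIM1 went from 5.05 ± 0.129 to 17.5 ± 2.17 RPKM (SD, n = 2 a group), the cytokine IL11 from 2.48 ± 0.916 to 7.49 ± 2.33 RPKM (SD, n = 2 a group), and the feedback inhibitor SOCS3 from 11.5 to 19.4 RPKM. STAT3 itself differed by 0.04 at 2 h (adjusted p = 0.696 in limma). Of 21 regulators of C/EBP protein, 13 were tested and 1 was called higher, a share of 7.69% near the 5.98% of all tested genes. It was the pseudokinase TRIB3, from 1.36 ± 0.279 to 2.61 ± 0.268 RPKM (SD, n = 2 a group). The median of that list was -0.09. None of these 2 lists' genes was called at 30 min.

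Genes known as targets of C/EBP factors in other tissues were mostly under the minimum of 1 RPKM and not tested. Of 24 acute-phase and inflammatory targets 4 were tested at 2 h, of which 2 rose and 1 fell, against 5.98% and 7.1% of all tested genes. The 4 genes are too few for a statement on the list, and CXCL8 passed the minimum only through the merbarone group. The chemokine CXCL8 rose from 0.572 ± 0.479 to 2.51 ± 0.111 RPKM (SD, n = 2 a group) and CCL2 from 21.5 to 42.5 RPKM, while the pentraxin PTX3, which overlaps VEPH1 in the tables, fell from 32.7 to 22.4 RPKM. Of 18 adipogenic and differentiation targets 2 were tested, of which 1, the zinc-finger factor KLF5, rose by 0.48 on the log2 scale, with a list median of 0.32. No gene of these 2 lists was called at 30 min. Of the pigment epithelium markers 3 were tested at 2 h and 1, OTX2, fell by 0.32 on the log2 scale; its part in the results for the CEBP genes was not tested.

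The genes whose pattern was most like that of a member were found by Pearson's r of log2(RPKM + 1) over the 10 libraries, after the mean of the controls of each experiment was taken out, among 6558 genes. These correlations are a description, and the points share their control libraries and, within an experiment, their depth. With the control means taken out, CEBPB and CEBPG stood out mainly in the 2 h merbarone libraries. A high r with either therefore largely restates a rise in those libraries. CEBPB was most like MTG2 (r = 0.993), DUSP12 (0.981) and DDIT4 (0.979), and 140 genes had an r above 0.9 with it. CEBPG was most like ZNF623 (r = 0.995), BRPF3 (0.992) and PPP1R3B (0.991), and 214 genes had an r above 0.9 with it. CEBPD was most like INAFM1 (r = 0.945), BCL3 (0.941) and FGFRL1 (0.939), and 25 genes had an r above 0.9 with it. The genes most like CEBPB and CEBPG had smaller 2 h differences than the members, apart from DDIT4. The log2 difference at 2 h was 0.22 for MTG2, 0.25 for DUSP12, 0.42 for ZNF623, 0.49 for BRPF3 and 0.62 for PPP1R3B. Of these 5, the 3 named with CEBPG passed the test and the 2 named with CEBPB did not (adjusted p = 0.0729 and 0.0667 in limma).

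The nearest genes of the tables on either side of the members were tested or listed in the same way. PEDS1, 37096 bp from CEBPB, differed by -0.06 on the log2 scale at 2 h (adjusted p = 0.618 in limma), and PTPN1, 317653 bp away on the other side, by -0.07 (adjusted p = 0.553 in limma). PEPD, 4264 bp from CEBPG, had 0.230 ± 0.0267 RPKM in untreated cells and 0.218 ± 0.0283 after 2 h (SD, n = 2 a group). It was under the minimum of 1 RPKM and not tested, which does not by itself mean few reads. CEBPA, the neighbour of CEBPG on the other side, had 4 reads or fewer in every library. Beside CEBPD, PRKDC had 0.659 ± 0.147 and 1.13 ± 0.00159 RPKM and SPIDR 0.132 ± 0.00893 and 0.137 ± 0.00141 RPKM (SD, n = 2 a group), both untested.

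**Figure D4:**
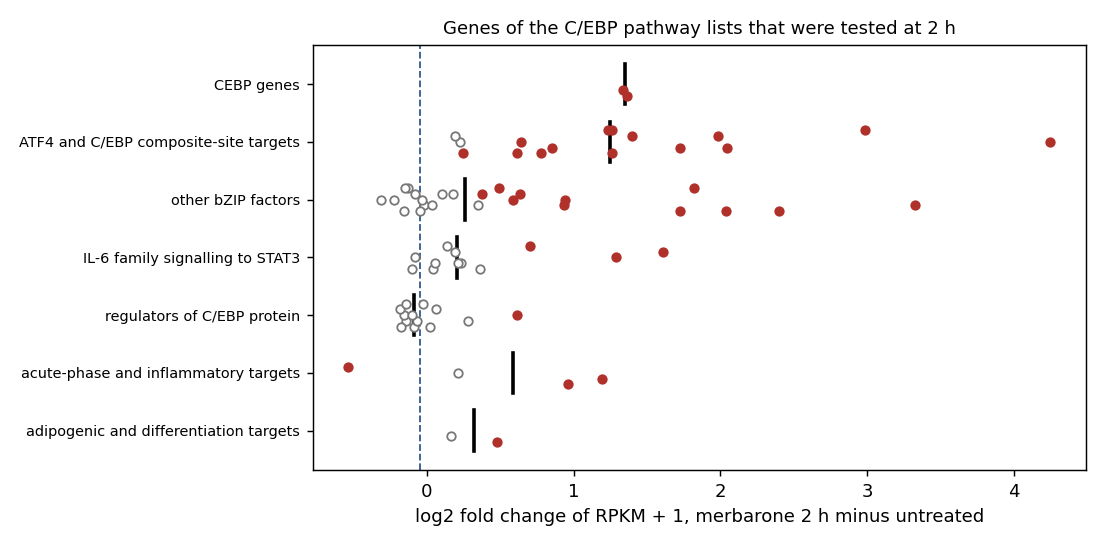
Log2 differences at 2 h of merbarone for the tested genes of each list, the CEBP genes included (points, filled red where limma called the gene), with list medians (black lines) and the median of all tested genes (dashed line). The composite-site list has a median of 1.25 and the CEBP genes lie at 1.34 and 1.36, against -0.05 over all tested genes. Some list medians include genes that passed the minimum only through the merbarone group. These are 5 genes of the composite-site list, 4 of the other bZIP factors and 1 of the acute-phase list.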

How the data were processed

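Polyadenylated RNA was sequenced from stranded libraries made from 150 ng of total RNA, per the labels' protocols. The authors deposited 1 table of RPKM values per library, with replicates not pooled; the GRCh37 build, Bowtie 1.2.0, DESeq2, edgeR and deepTools 2.4.1 are named in the submitters' processing notes, without roles. The counter, annotation and strand setting are not given in the sources used here. RPKM values were whole multiples of the value of 1 read for 17680 genes, 100% of those with any value within 0.001 reads, which gave back the reads. Gene lengths implied by the values mostly include introns, so RPKM understates long genes.

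Tests used limma 3.58.1 (R 4.3.3, lmFit, eBayes with trend) on log2(RPKM + 1), for genes averaging at least 1 RPKM in the fit, two-sided, with Benjamini-Hochberg adjustment over all genes and a threshold of 0.05. The alternatives were other pseudocounts, minima and scalings, the replicate block, all libraries in 1 fit, voom in limma on recovered reads (genes averaging at least 10 reads, TMM scaling) and leaving out each library. The fits were tested on simulated reads with the same setting of spread for every gene and no link between same-numbered libraries. That run checked the code and does not measure error rates in these data. In the 30 min experiment, same-numbered libraries deviated together (r = 0.925, 0.646 and 0.605 across genes), by the replicate numbers in the labels. Replicate pairs differed beyond sampling noise (chi-square 4.13 to 63.3 per degree of freedom). Named genes are the members, genes with C/EBP in their name, up to 3 called genes per list with the largest 2 h change, any called at 30 min, the 3 genes most like a member, and neighbours; ATF4, STAT3 and the expressed markers were added after their values were seen. The members and lists were chosen with earlier results of these data known. Symbols matched 19637 of 20327 identifiers. Reads were recovered in Python 3.11.15 with pandas 2.3.3, NumPy 2.4.6 and SciPy 1.17.1; plots used matplotlib 3.10.9.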

Additional observations from a re-analysis of the deposited data

Results flagged for a closer look

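For 9 of the genes named here by rule, the effect of merbarone at 2 h differed from that at 30 min by limma's test of the difference itself over the 10 libraries, in which time, kind of control and experiment cannot be told apart. CEBPG was the only member among them, with a difference of 1.25 ± 0.12 on the log2 scale (SE, adjusted p = 0.00129 in limma). DDIT3, the C/EBP partner CHOP, differed by 1.95 ± 0.16 (adjusted p = 5.72e-04 in limma).

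Of the genes with composite sites for ATF4 and C/EBP factors, CHAC1 differed by 4.35 ± 0.13 (adjusted p = 5.23e-07 in limma), DDIT4 by 2.99 ± 0.57 (adjusted p = 0.0358) and SESN2 by 2.06 ± 0.17 (adjusted p = 6.38e-04). ASNS, SLC3A2, PSAT1, MTHFD2 and PPP1R15A of the same list passed too and are named after their values were seen. CHAC1, SESN2 and ASNS had means under 1 RPKM in every group but 2 h merbarone. PSAT1 had 0.756 and 0.795 RPKM in the 30 min experiment and 1.08 RPKM in untreated cells. These genes passed the minimum over the 10 libraries only through the 2 h merbarone group, so their rise admitted them. TRIB3, which targets C/EBP proteins among others, differed by 0.67 ± 0.11 (adjusted p = 0.0179 in limma). The STAT3 target PIM1 differed by 1.50 ± 0.25 (adjusted p = 0.0222) and KLF5 by 0.47 ± 0.08 (adjusted p = 0.0230). FOS went the other way, with a smaller effect at 2 h, by -2.65 ± 0.36 (adjusted p = 0.00731 in limma). Its control means were under 1 RPKM (0.992 with DMSO and 0.720 untreated), so the merbarone groups admitted it. No test for single outlying libraries was made, since each group held 2 or 3.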

How the results depend on the processing

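No called result changed direction. At 2 h, CEBPG passed in 14 of 14 alternatives and CEBPB in 13 of 14; without the RPKM minimum CEBPB, at 1.36, had an adjusted p of 0.0716 in limma, 1 member was called and 53 genes in all. CEBPD, untested in the main fit, passed with voom on reads (0.98) and voom with the replicate block (0.96). It did not pass without the RPKM minimum or with all 10 libraries in 1 fit (0.46 in each). Without either untreated library (0.35 to 0.57) it reached the minimum only because a low control was left out. Those fits admitted CEBPD through its merbarone libraries and are no support for a rise. In the difference between effects, CEBPB passed with median scaling (1.32), quantile normalization (1.29), the replicate block (1.30) and voom with that block (1.35), with 2 members called in each, and over left-out libraries it was 1.15 to 1.47 with 1 to 2 members called. A minimum of 5 RPKM tested CEBPB alone there and called 0.

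The number of all genes called moved more. At 30 min (1 gene) it was 0 without the minimum, 2 with a minimum of 5 RPKM, median scaling, quantile normalization or all 10 libraries, 8 with the replicate block, 13 with voom and the block, and 0 to 2 over left-out libraries. At 2 h (866) it was 397 with a minimum of 5 RPKM, 2129 with the block, 2079 with voom, 3564 with voom and the block, and 328 (without merbarone replicate 1) to 2464 (without untreated replicate 1) over left-out libraries, with 398 without merbarone replicate 2 and 1311 without untreated replicate 2; a lone library was assumed to vary like the others. The 2 h replicates share only a number (correlation 0.300, 2 pairs). For the difference (107) it was 361 without the minimum, 36 with a minimum of 5 RPKM, 1255 with the block, 69 with voom, 2112 with voom and the block, and 38 to 86 over left-out libraries. At 2 h the share of calls that were higher was 45.7%, and 57.0% with voom, 38.2% with the block, 90.6% without the minimum, and 36.2% (without untreated replicate 1) to 63.1% (without merbarone replicate 1) over left-out libraries. The cause of these shifts was not tested. Depth limits CEBPA and CEBPD most: with 4 reads or fewer and with 15 to 37 reads in the 2 h libraries, only large changes could be seen.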
